A study of Mus with 6 samples.

Results

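T cells leave the blood by a sequence of adhesive contacts, and the 9 genes described here encode molecules of that sequence, namely Selplg, Cd44, Itgal, Itgb2, Itga4, Itgb1, Itgb7, Itgae and Icam1. They were chosen by name for their role, by no cutoff on their values, though with earlier results of these data known, and all 9 were found once each among the 10995 protein-coding genes of the table. RNA was measured in wild-type mouse CD4+ T cells from the spleen that had been naive at the start and were then stimulated for 3 days with anti-CD3 (5 μg/mL), anti-CD28 (2 μg/mL) and IL-2 (100 U/mL). Both groups received this activation. One group of 3 libraries was given a neutralizing antibody to VEGF-B and the other group of 3 libraries normal goat IgG, each at 1 μg/mL, and the comparison asks which transcripts differ when VEGF-B is neutralized. The sources used here do not say whether the 3 libraries of a group came from separate mice or cultures, so the p-values measure the spread between libraries, which may be technical. Naive cells were purified as CD44- cells, so that CD44 protein had served to choose the starting cells.

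A selectin ligand on the T cell, such as PSGL-1, first catches on the vessel wall and lets the cell roll. Integrins, which are pairs of an alpha and a beta chain, then switch to a high-affinity state and hold the cell firmly before it crosses the wall. The alpha chain of Itgal pairs with the beta chain of Itgb2 to form LFA-1, which binds ICAM-1. The chain of Itga4 pairs with that of Itgb1 to form VLA-4, a receptor for VCAM-1 and fibronectin, or with that of Itgb7 to form the gut-homing receptor for MAdCAM-1. The chain of Itgae (CD103) pairs with that of Itgb7 and binds E-cadherin on epithelium. T cells carry ICAM-1 themselves, and LFA-1 on one T cell can bind ICAM-1 on another.

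The values were taken to be FPKM, a count of fragments divided by the length of the transcript and the size of the library. This unit was inferred from the quantification tools and from values that are not whole numbers, since the table itself names no unit, and no other scaling is stated. FPKM carry no depth, so that the precision from counting is unknown and the spread between replicates is the error given. Differences were tested with limma on log2(FPKM + 1) for 8816 genes whose mean reached 1 FPKM, and genes under 0.05 after Benjamini-Hochberg adjustment over all of them were called. Because 1 was added to each value, log2 fold changes of genes with low FPKM are too small. The median log2 fold change of all tested genes was -0.15, with 71.2% of them below 0, and changes are also given relative to this median. CD4+ T cell markers were present, as the 7 listed genes (Cd3d, Cd3e, Cd3g, Cd4, Cd28, Cd5 and Lck) summed to between 486 and 520 FPKM with anti–VEGF-B and between 481 and 542 with IgG. Of the CD8 markers Cd8a was at most 0.182 FPKM, while Cd8b1 reached 4.51. Cd79b, the 1 of 4 B cell markers in the table, was at most 1.34 FPKM. The table held 1 of 4 dendritic cell markers, Zbtb46, and 1 of 3 NK cell markers, Klrd1. They were at most 0.372 and 0.512 FPKM. IgG replicate 3 stood apart in the macrophage and monocyte markers Lyz2, Csf1r and Cd14, but little in Cd68. Cd68 was at 8.99 FPKM there and between 6.44 and 8.45 in the other 5 libraries. Lyz2 was at 16.4 FPKM there and between 3.26 and 4.19 in the other 5 libraries, Csf1r at 1.57 against 0.288 to 0.380, and Cd14 at 1.80 against 0.397 to 0.777. The 4 of 7 myeloid markers in the table had sums of 11.4 to 12.9 FPKM after anti–VEGF-B and of 12.8 to 28.8 FPKM after IgG. Of the T cell markers, Cd3e (log2 fold change -0.51, adjusted p = 0.0197 from limma) and Cd5 (-0.38, adjusted p = 0.0343) were called lower and the other 5 were not. Whether these shifts bear on the adhesion genes was not tested. In bulk RNA, fewer cells of a type and less RNA per cell cannot be told apart.

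Of the 9 genes, Icam1, Itgal, Itgb1 and Itga4 were lower with anti–VEGF-B, and no gene of the group was called higher. Icam1 fell most, to 6.76 FPKM from 17.3, while the most abundant transcripts, Itgb7 and Selplg, differed by less than the spread between replicates. Itgae was below 1 FPKM on average and was tested only without the filter. Among all tested genes 23.8% were called lower and 4.87% higher, against which stand the 4 lower and 0 higher calls among the 8 genes of the group above the filter. The counts over all genes depended on single libraries, since 2099 lower and 429 higher calls became 695 and 164 without anti–VEGF-B replicate 3 and 1101 and 258 without IgG replicate 2, and the lower calls 1367 without anti–VEGF-B replicate 1. In these fits 3 or 4 genes of the group were lower. At an unadjusted p under 0.05 in limma the counts were also 4 and 0. Itga4 passed the filter only through its IgG libraries, so that these counts describe the group and are not support for it. The groups of libraries did not overlap for the same 4 genes, as for 49.0% of all genes tested. Without moderation of the variance across genes, none of the 4 reached an adjusted p under 0.05 (0.0696 to 0.110 in the unmoderated linear model, with all 4 at an unadjusted p under 0.05). Over all tested genes that fit called 6 lower and 6 higher after adjustment, and its share of all genes at an unadjusted p under 0.05 is not given here.

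**Figure D1:**
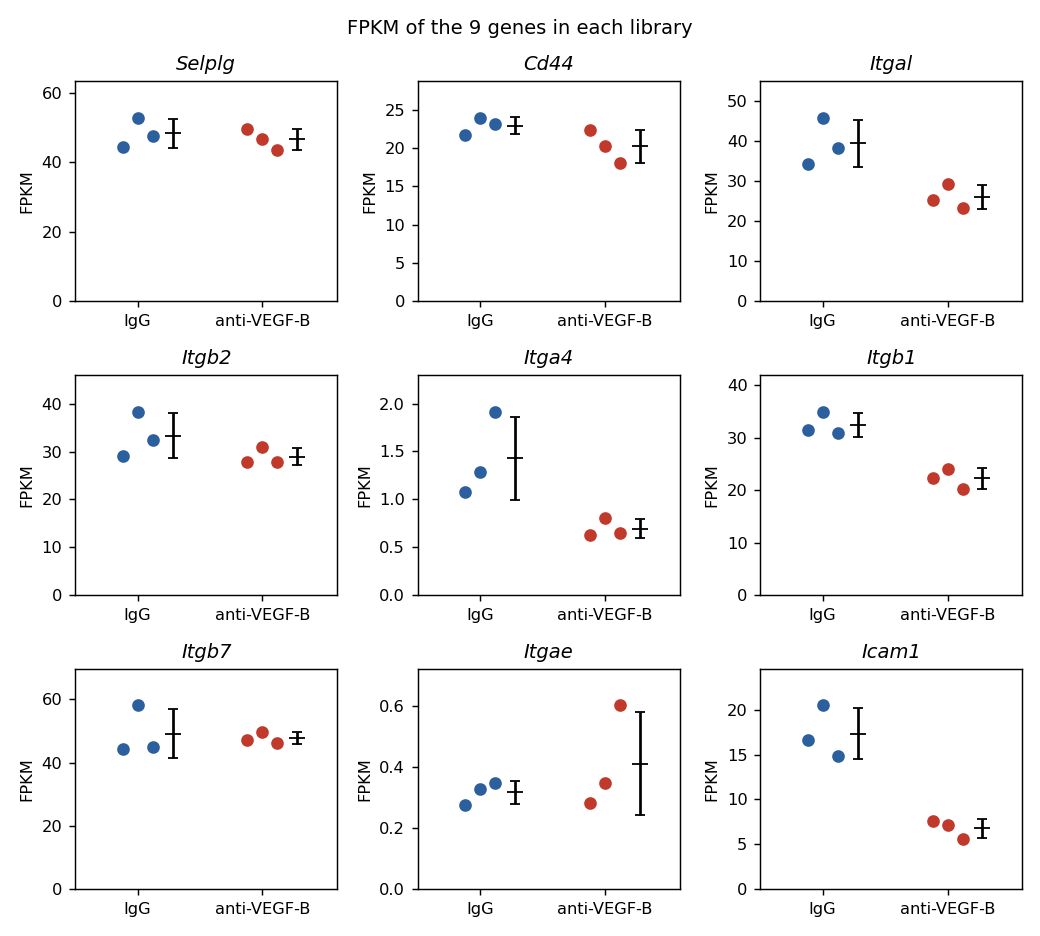
FPKM of each of the 9 genes on axes that start at 0, with a point for each of 3 IgG (blue) and 3 anti–VEGF-B (red) libraries and a bar for the mean ± SD. The red points of Icam1, Itgal, Itgb1 and Itga4 all lie under the blue points, and the points of the other 5 genes overlap between treatments.

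The levels spanned a wide range. With IgG the order of mean FPKM was Itgb7 (49.1), Selplg (48.4), Itgal (39.4), Itgb2 (33.3), Itgb1 (32.4), Cd44 (22.9), Icam1 (17.3), Itga4 (1.43) and Itgae (0.316). The first 5 formed a chain in which the libraries of each gene overlapped those of the next, while Cd44, Icam1, Itga4 and Itgae each lay below the gene before them in every IgG library. With anti–VEGF-B, Itgb2 (28.9) stood above Itgal (25.9), and Itgb2 overlapped Itgal, Itgal overlapped Itgb1 (22.2), and Itgb1 overlapped Cd44 (20.2), whereas Icam1 lay below Cd44 in every library. Averaged over the 6 libraries, Itgb7 ranked at the 93.2 percentile of all 10995 genes by mean FPKM and Selplg at 93.1, whereas Itga4 was at 20.8 and Itgae at 5.83.

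Selplg (chromosome 5 of GRCm38, 113818536 to 113832644, minus strand) encodes PSGL-1, the main P-selectin ligand of leukocytes. It was at 49.6, 46.7 and 43.6 FPKM in the anti–VEGF-B libraries and at 44.5, 52.9 and 47.7 in the IgG libraries. The ranges overlapped, with IgG replicate 2 above and anti–VEGF-B replicate 3 below all libraries of the other group. The log2 fold change was -0.049 (95% interval -0.24 to 0.15, adjusted p = 0.686 from limma), which leaves both a modest fall and a modest rise within the interval. Its sign changed to a positive value with median centring (0.15), with scaling to Actb (0.017) and without IgG replicate 2 (0.016).

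Cd44 (chromosome 2, 102811141 to 102901665, minus strand) encodes the hyaluronan receptor that marks activated and memory T cells. Its values were 22.3, 20.3 and 18.0 FPKM with anti–VEGF-B and 21.7, 24.0 and 23.1 with IgG. Anti–VEGF-B replicate 1 lay among the IgG libraries and the other two below them. The log2 fold change of -0.18 (95% interval -0.39 to 0.030) was close to the median of all genes, differing from it by -0.027, and did not pass (adjusted p = 0.168 from limma).

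Itgal (chromosome 7, 127296260 to 127335138, plus strand), the alpha chain of LFA-1, fell. It was at 25.1, 29.3 and 23.4 FPKM with anti–VEGF-B and at 34.2, 45.7 and 38.2 with IgG. Every anti–VEGF-B library was below every IgG library, with means of 25.9 ± 3.02 and 39.4 ± 5.86 (SD, n = 3 each). On the log2 scale limma gave -0.58 with a standard error of 0.119 (adjusted p = 0.0115), which was -0.43 when set against the median of all genes.

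Itgb2 (chromosome 10, 77530252 to 77565708, plus strand), the beta chain of LFA-1 and of other leukocyte integrins, was at 27.8, 31.0 and 27.9 FPKM with anti–VEGF-B and at 29.1, 38.4 and 32.4 with IgG. Anti–VEGF-B replicate 2 was above IgG replicate 1, so that the groups overlapped. Its log2 fold change of -0.19 (95% interval -0.43 to 0.046, adjusted p = 0.190 from limma) was near that of all genes, and turned to 0.010 with median centring.

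Within a library, the ratio of the FPKM of 2 genes is the same whatever factor the library is scaled by. The ratio of Itgal to Itgb2 was 1.18, 1.19 and 1.18 in the IgG libraries and 0.904, 0.945 and 0.837 in the anti–VEGF-B libraries. The alpha chain was thus above the beta chain in each of 3 IgG libraries and below it in each of 3 anti–VEGF-B libraries. The difference in the mean log2 ratio was -0.40 (two-sided exact permutation test, p = 0.1, which is the lowest possible with 3 libraries a group, and 0.125 after Benjamini-Hochberg adjustment over 5 ratios). It ran from -0.44 to -0.36 when any 1 library was left out.

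**Figure D2:**
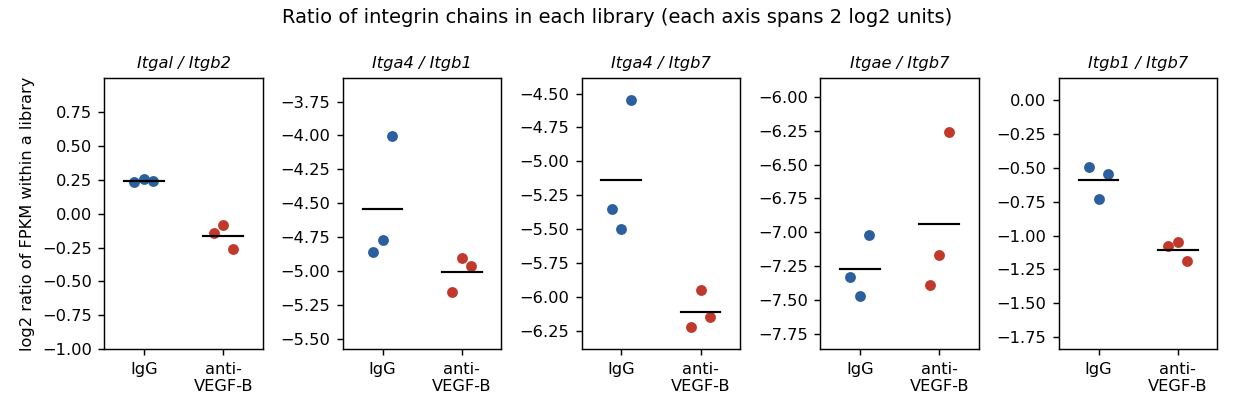
log2 ratio of FPKM of 2 integrin genes within each library, for 3 IgG (blue) and 3 anti–VEGF-B (red) libraries with a line at each mean, on axes that all span the same width. Itgal over Itgb2 lies at 1.18 to 1.19 (before taking log2) in the IgG libraries and at 0.837 to 0.945 in the anti–VEGF-B libraries, and Itgae over Itgb7 overlaps between treatments.

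Itgb1 (chromosome 8, 128685654 to 128733200, plus strand) encodes the beta chain shared by VLA-4 and most receptors for matrix proteins. It was at 22.4, 24.1 and 20.2 FPKM with anti–VEGF-B and at 31.5, 35.0 and 30.8 with IgG. The groups were well apart, with means of 22.2 ± 1.94 and 32.4 ± 2.23 FPKM (SD, n = 3 each), and the spread within each was among the smaller ones of the 9 genes. Its log2 fold change of -0.53 had a standard error of 0.0894 and an adjusted p of 0.00714 in limma, and stood at -0.38 from the median of all genes.

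Itga4 (chromosome 2, 79255426 to 79333123, plus strand), the alpha chain of VLA-4 and of the gut-homing integrin, was much less abundant than either of its partners. It was at 0.630, 0.804 and 0.648 FPKM with anti–VEGF-B and at 1.08, 1.28 and 1.92 with IgG. All anti–VEGF-B libraries were below all IgG libraries, and the highest value was in IgG replicate 3, the library with more myeloid marker RNA. In limma the log2 fold change of Itga4 came to -0.51, with a standard error of 0.135 and an adjusted p of 0.0248, and to -0.91 with a pseudocount of 0.1. The call was lost without IgG replicate 3 (-0.37, adjusted p = 0.0650), and likewise when anti–VEGF-B replicate 1 (-0.48, adjusted p = 0.0680) or replicate 3 (-0.49, adjusted p = 0.0780) was left out, and after quantile normalization, median centring or cyclic loess (adjusted p = 0.138, 0.126 and 0.185 from limma). Over all alternatives its adjusted p ran from 0.0183 to 0.185. The part of the myeloid RNA in this value was not tested. The end of the neighbouring gene Cerkl overlaps that of Itga4 in RefSeq.

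Itgb7 (chromosome 15, 102215995 to 102231935, minus strand), the beta chain of both mucosal integrins, was at 47.1, 49.7 and 46.1 FPKM with anti–VEGF-B and at 44.2, 58.1 and 45.0 with IgG. IgG replicate 2 was the high library, and the other 5 lay between 44.2 and 49.7 FPKM. The log2 fold change was -0.032 (95% interval -0.27 to 0.21, adjusted p = 0.834 from limma). It was positive with median centring (0.17), with scaling to Actb (0.034) and without IgG replicate 2 (0.093).

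The ratio between chains also separated the treatments for the beta chains, as 49.0% of all tested genes did singly. Itgb1 and Itga4, the upper genes of the ratios that follow, were themselves called lower. The ratio of Itgb1 to Itgb7 was 0.475, 0.484 and 0.438 with anti–VEGF-B and 0.712, 0.602 and 0.685 with IgG, and the groups did not overlap (difference in mean log2 ratio -0.51, two-sided exact permutation p = 0.1, adjusted 0.125). For Itga4 the ratio to Itgb7 was 0.0134, 0.0162 and 0.0141 with anti–VEGF-B and 0.0244, 0.0221 and 0.0426 with IgG (difference -0.97, exact permutation p = 0.1, adjusted 0.125). Without IgG replicate 3 this difference was -0.68. The ratio of Itga4 to Itgb1 differed by -0.46 (exact permutation p = 0.1, adjusted 0.125), but by -0.19 without IgG replicate 3, so that most of this difference rested on that library. Its groups nearly met, at 0.0334 in anti–VEGF-B replicate 2 and 0.0344 in IgG replicate 1. With a pseudocount of 0.1 the difference was -0.37 (exact permutation p = 0.2).

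Itgae (chromosome 11, 73090583 to 73147446, plus strand) was at 0.282, 0.347 and 0.602 FPKM with anti–VEGF-B and at 0.276, 0.328 and 0.346 with IgG. Only anti–VEGF-B replicate 3 stood above the IgG range by more than 0.01 FPKM. In the fit without the filter its log2 fold change was 0.093 (95% interval -0.12 to 0.31, limma adjusted p = 0.479). It came to -0.0025 when anti–VEGF-B replicate 3 was left out, and the difference in the log2 ratio of Itgae to Itgb7 went from 0.34 (exact permutation p = 0.6) to -0.0027. The gene Haspin lies inside Itgae on the opposite strand, with 0.173 to 0.524 FPKM with anti–VEGF-B and 0.465 to 0.777 with IgG. Stranded libraries were made, but whether reads were assigned by strand is not given in the sources used here.

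Icam1 (chromosome 9, 21015985 to 21028817, plus strand), the ligand of LFA-1 and a gene induced by NF-kB and interferon signals, had the largest difference of the group. It was at 7.56, 7.11 and 5.60 FPKM with anti–VEGF-B and at 16.7, 20.5 and 14.9 with IgG. The highest anti–VEGF-B library was at about the midpoint between 0 and the lowest IgG library. Means were 6.76 ± 1.02 and 17.3 ± 2.87 FPKM (SD, n = 3 each), a ratio of 0.390. Its log2 fold change was -1.24 (95% interval -1.55 to -0.93, limma adjusted p = 0.00469) and lay -1.09 from the median of all genes. For 25 of the 8816 tested genes the value was lower. That of Icam1 was -1.34 without IgG replicate 3.

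**Figure D3:**
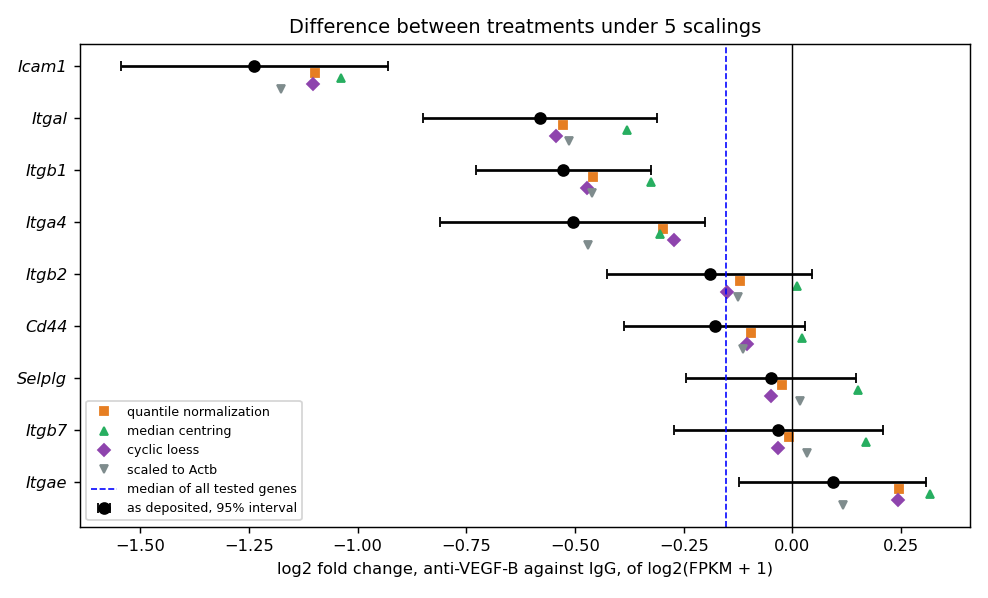
log2 fold change of log2(FPKM + 1), anti–VEGF-B against IgG, for the 9 genes, with the 95% interval from limma for the values as deposited (black) and the estimate under 4 other scalings (coloured), each from 3 libraries a treatment. Icam1 stays between -1.24 and -1.04, while Itgb2, Cd44, Selplg and Itgb7 cross 0 with median centring.

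The calls of Icam1, Itgb1 and Itgal remained under each of the 4 other scalings and when any 1 library was left out. Over those fits the adjusted p from limma was at most 0.0159 for Icam1, 0.0293 for Itgb1 and 0.0444 for Itgal.

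**Figure D4:**
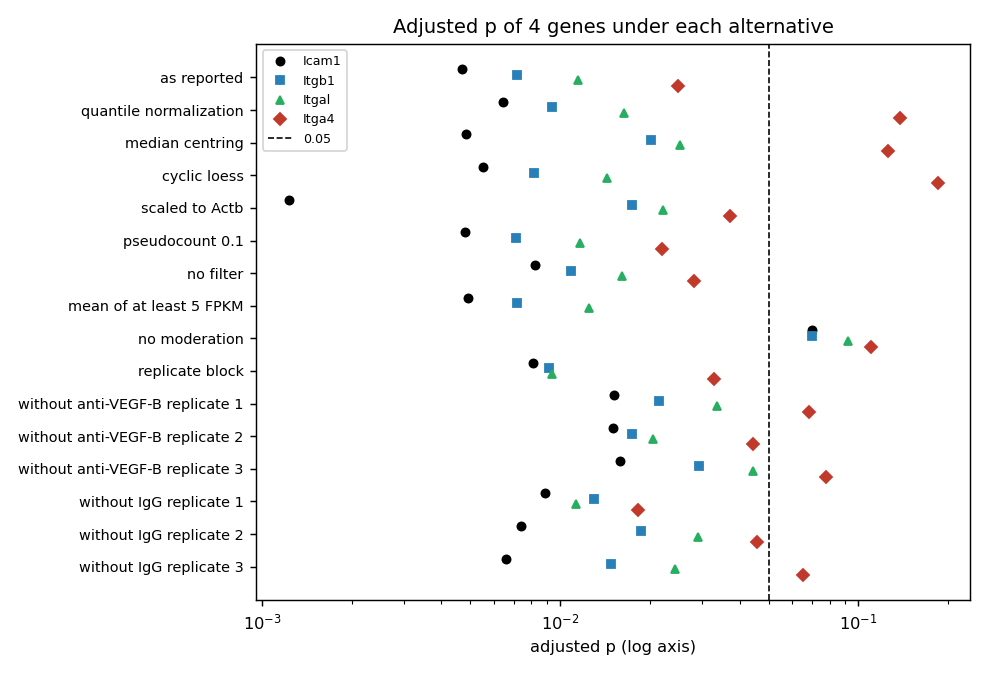
Adjusted p of Icam1, Itgb1, Itgal and Itga4 on a log axis, one row for each way of processing the 6 libraries, with a dashed line at 0.05. The first 3 genes lie right of the line only without moderation of the variance, and Itga4, which has no value at a mean of at least 5 FPKM, lies right of it in 7 rows.

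The genes around these molecules were read from 6 lists written from general knowledge. Of 109 genes listed, 86 were in the table and 73 were tested, of which 20 (27.4%) were called lower and 5 (6.85%) higher, near the 23.8% and 4.87% of all tested genes. The counts of the single lists below describe small sets against the same background. The median log2 fold change of the 73 was -0.19 against -0.15 for all genes. These counts depended on the scaling more than those of the 9 genes did, with 9 lower and 13 higher after median centring, and on 1 library, with 9 lower without anti–VEGF-B replicate 3 and 10 without IgG replicate 2.

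Among the other integrin subunits, 7 of 20 were tested, 0 were called lower by limma and 1 higher, with a median of -0.030. Itga7, the alpha chain of a laminin receptor, was the integrin gene with the highest FPKM of the table's, at 81.1 ± 2.90 with IgG and 97.6 ± 6.33 after anti–VEGF-B (SD, n = 3 each). The genes Gm46186, Gm25494 and Mettl7b overlap Itga7 in RefSeq, and their part in its value was not tested. The call of Itga7 (log2 fold change 0.26, limma adjusted p = 0.0305) did not hold after quantile normalization, cyclic loess or scaling to Actb, nor without any library other than anti–VEGF-B replicate 1. The alpha chain Itgav had -0.31 (adjusted p = 0.0628), its partner Itgb3 -0.15 (adjusted p = 0.402) and Itga6 -0.030 (adjusted p = 0.881), so that none of these 3 passed. Itgav did pass without IgG replicate 1 (-0.38, adjusted p = 0.0460) and with a block for the replicate number (-0.31, adjusted p = 0.0328 from limma). In this list 1 gene was lower at an unadjusted p under 0.05, Itgav.

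The list of integrin activation and actin linkage held 25 tested genes of 30, with 6 lower and 0 higher in limma and a median of -0.22. Lower were Rasgrp1 (-0.78, adjusted p = 0.00738), an exchange factor that activates Ras in T cells, Rassf5 (-0.62, adjusted p = 0.00872), a Rap1 effector that binds LFA-1, and Flna (-0.67, adjusted p = 0.0128), an actin crosslinker that binds beta chain tails. Rassf5 was at 10.1, 10.4 and 9.81 FPKM with anti–VEGF-B and at 14.5, 19.4 and 14.8 with IgG, with no overlap. Talin and kindlin, which bind the beta chain tail and switch the integrin on, are encoded by Tln1 and Fermt3. The estimate for Tln1 was -0.31 (adjusted p = 0.0865) and that for Fermt3 -0.098 (adjusted p = 0.478), and neither passed. Tln1 did pass without IgG replicate 1 (-0.40, adjusted p = 0.0431) and with a block for the replicate number (-0.31, adjusted p = 0.0346 from limma). At an unadjusted p under 0.05 no gene of this list was higher.

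Of the enzymes and carriers that build selectin ligands, 7 of 12 were tested, with 4 lower and 1 higher. St3gal4, a sialyltransferase, fell from 4.68 ± 0.727 to 2.19 ± 0.133 FPKM (SD, n = 3 each; log2 fold change -0.83, adjusted p = 0.00492 from limma). Slc35c1, the GDP-fucose transporter of the Golgi, also fell (-0.68, adjusted p = 0.0136), though not without anti–VEGF-B replicate 3 (adjusted p = 0.0516). B4galt1, a galactosyltransferase, rose from 52.0 ± 4.31 to 72.7 ± 2.20 FPKM (0.48, adjusted p = 0.00690). The fucosyltransferase gene Fut7 and the core-2 enzyme gene Gcnt1, which are needed for selectin binding by PSGL-1, were at or under 0.964 and 0.119 FPKM in every library. Their log2 fold changes in the fit without the filter were -0.21 (adjusted p = 0.399) and -0.069 (adjusted p = 0.412).

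The list of other adhesion molecules had 16 tested genes of 26, of which 4 were called lower and 3 higher. Spn, which encodes the mucin CD43, was at 13.3, 12.4 and 11.1 FPKM with anti–VEGF-B and at 20.3, 32.5 and 24.9 with IgG. The groups did not overlap (log2 fold change -0.996, limma adjusted p = 0.00527). Emb (0.35, adjusted p = 0.0155), which encodes embigin, a chaperone of monocarboxylate transporters, and Glg1 (0.37, adjusted p = 0.0245), which encodes an E-selectin ligand of the Golgi, were higher. The call of Glg1 was lost without anti–VEGF-B replicate 2 or 3 and without IgG replicate 1 or 2 (adjusted p from 0.0523 to 0.0894), and that of Emb without anti–VEGF-B replicate 3 (0.0656). Icam2, which encodes another LFA-1 ligand, had -0.42 (adjusted p = 0.101), but passed without anti–VEGF-B replicate 1 (-0.63, adjusted p = 0.0245).

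Ezrin, moesin and their relatives tie CD44, PSGL-1 and ICAM-1 to actin, and ADAM proteases cut CD44 and other adhesion molecules from the surface. Of 9 genes listed for these roles 6 were tested, with 4 lower and 0 higher (also 0 at an unadjusted p under 0.05) and a median of -0.48. Ezr fell from 46.6 ± 4.69 to 28.3 ± 1.63 FPKM (-0.69, adjusted p = 0.00471 from limma), Adam10 from 10.2 ± 2.29 to 4.94 ± 0.742 (-0.90, adjusted p = 0.00748) and Msn from 81.8 ± 11.4 to 56.7 ± 5.07 (-0.51, adjusted p = 0.0129). The call of Msn was lost when anti–VEGF-B replicate 3 was left out (-0.44). The last list held 12 genes of pathways upstream of Itgae in T cells, namely Tgfb1, TGF-beta receptors, SMAD factors, Ski, Skil, RUNX factors and Cbfb. Their median was -0.023, with 2 lower and 0 higher in limma and 0 higher at an unadjusted p under 0.05. The 2 were Cbfb (-0.30, adjusted p = 0.0275) and Tgfbr1 (-0.30, adjusted p = 0.0326), and neither kept the call under any of the 4 other scalings or when any 1 library other than those named next was left out, the exceptions being anti–VEGF-B replicate 1 and IgG replicate 1 for Cbfb and IgG replicate 1 for Tgfbr1. Runx3 averaged 126 ± 4.46 FPKM in the IgG libraries and 140 ± 12.1 under anti–VEGF-B (SD, n = 3 each; 0.14, adjusted p = 0.211, but 0.34 and 0.0250 with median centring), and Runx1 had -0.11 (adjusted p = 0.361).

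**Figure D5:**
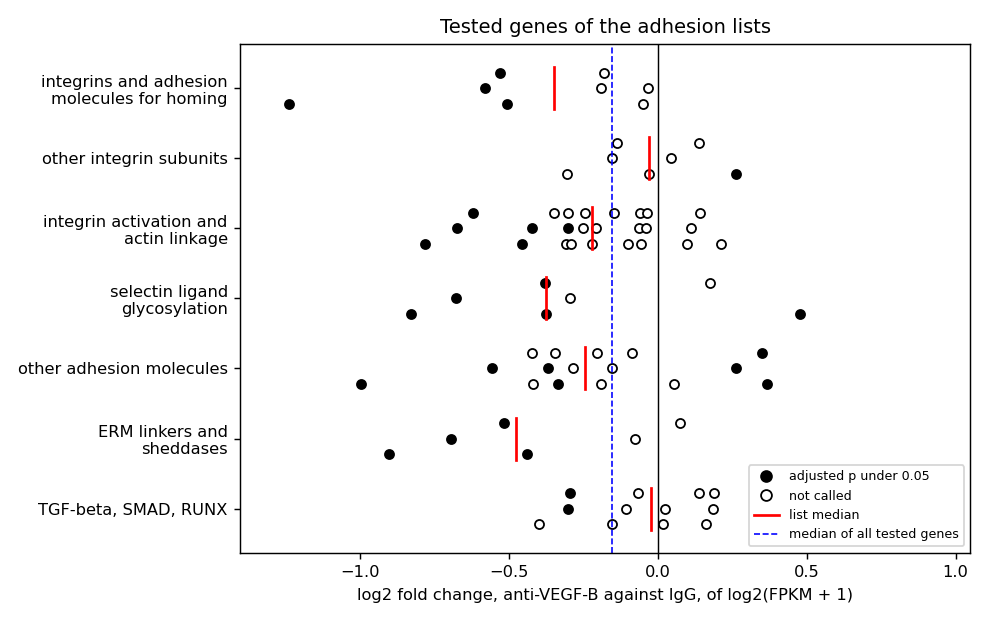
log2 fold change of log2(FPKM + 1), anti–VEGF-B against IgG, for the tested genes of the adhesion group and of 6 lists around it, from 3 libraries a treatment, with filled points at an adjusted p under 0.05 from limma, a red line at each list's median and a dashed line at the median of all tested genes (-0.15). Icam1 at -1.24 is the leftmost point, and B4galt1 at 0.48 the rightmost.

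The genes most like Icam1 over the 6 libraries, by Pearson correlation of log2(FPKM + 1), were Serpina3f (r = 0.999), Ier5 (r = 0.999) and 4930523C07Rik (r = 0.998). As Icam1 separates the treatments, 1939 of the tested genes had an r over 0.9 with it. Those most like Itgb7, the most abundant gene of the group, were Kat14 (r = 0.996), Ubash3b (r = 0.993) and Cdc42se1 (r = 0.989), and 63 genes had an r over 0.9. These are descriptions over 6 libraries that share their scaling.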

How the data were processed

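RNA-Seq libraries of activated CD4+ T cells, 3 with anti–VEGF-B and 3 with IgG, were compared. The authors prepared stranded libraries, aligned reads to GRCm38 (mm10) with hisat2, quantified with StringTie and Ballgown and deposited 1 table that names no unit and is called raw data. Its values are not whole numbers, so the deposited values were taken as FPKM, an inference, and no count model was used. Columns were matched to samples by their labels, and 0 columns of values were left over. FPKM sums ran from 260058 to 276622, and depth is unknown.

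Values were analysed with R 4.3.3 and limma 3.58.1 as log2(FPKM + 1), with trend, no covariate and a mean of at least 1 FPKM, and the method was checked on simulated data. Ratios of chains were compared by exact permutation. All 9 genes were named, then in each list the 3 called genes with the lowest p and 11 genes given by name, of which 1 is not reported here. The genes and lists were chosen with earlier results of these data known. Alternatives changed scaling, pseudocount, filter, moderation, call rule, replicate block and libraries. RefSeq (GRCm38.p6) gave overlapping genes. No sequences were printed.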

Additional observations from a re-analysis of the deposited data

How the results depend on the processing

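With 3 libraries a treatment and no depth, only changes well above the replicate spread could be called. No moderation of the variance ended all calls in the group and the lists, with 0 of the 9 genes lower and 0 lower and 0 higher in the lists. In that fit 20 lower and 6 higher genes of the lists had an unadjusted p under 0.05, a limit for which the share of all genes is not given here. Elsewhere 3 or 4 of the 9 genes were lower and 0 higher. In the lists, 20 lower and 5 higher became 9 and 6 (quantile normalization), 9 and 13 (centring on the median), 10 and 5 (cyclic loess), 11 and 3 (Actb scaling), and 10 and 0 at an unadjusted p under 0.05 with a log2 fold change over 0.5. Leaving out 1 library gave 3 to 4 of the 9 genes, 9 to 23 lower and 1 to 4 higher in the lists, with 1 higher without anti–VEGF-B replicate 3 and 2 without anti–VEGF-B replicate 2 or IgG replicate 2. Over the tested genes, deviations from the group mean correlated at -0.030, 0.11 and 0.089 between same-numbered libraries. These values do not settle whether the replicate numbers pair the libraries. A block for the replicate number lowered the standard error of Itgal from 0.119 to 0.0771 and that of Cd44 from 0.0926 to 0.0917. With the replicate block the calls were 4 of the 9 genes and 25 lower and 5 higher in the lists, with Tln1 and Itgav among those added. The causes were not tested.

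Over all tested genes, 2099 lower and 429 higher calls became 913 and 880 (quantile), 807 and 1365 (median centring), 938 and 852 (cyclic loess) and 1309 and 365 (Actb). Without moderation of the variance they were 6 and 6.

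Signs turned as follows, and no gene called as lower or higher was among them. The median of all genes was 0.0077 (quantile), 0.049 (median centring) and 0.0019 (cyclic loess). With quantile normalization and cyclic loess Gcnt1 had 0.0095 and 0.050, Itga6 0.20 and 0.19, and Runx1 0.043 and 0.037. With median centring the values were 0.15 for Selplg, 0.022 for Cd44, 0.010 for Itgb2, 0.17 for Itgb7, 0.10 for Fermt3, 0.012 for Fut7, 0.15 for Gcnt1, 0.17 for Itga6, 0.049 for Itgb3 and 0.093 for Runx1. Scaled to Actb they were 0.017 for Selplg, 0.034 for Itgb7 and 0.026 for Itga6. Without 1 library, Itga6 ran from -0.18 (anti–VEGF-B replicate 2) to 0.061 (replicate 1), with 0.031 without replicate 3, and Itgae from -0.0025 (anti–VEGF-B replicate 3) to 0.16 (replicate 1). From without IgG replicate 1 to without IgG replicate 2, Selplg went from -0.11 to 0.016, Itgb7 from -0.10 to 0.093 and Fermt3 from -0.15 to 0.012. The log2 ratio of Itgae to Itgb7 ran from -0.0027 to 0.56 over the fits without 1 library, against 0.34.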
